A study of Mus musculus with 11 samples.

Results

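The 46 genes described here code for the machinery that copies DNA in S phase: the MCM helicase, the origin recognition complex and its licensing partners, firing and fork factors, replicative polymerases and primase, the PCNA clamp and its loader, replication protein A, the enzymes that join Okazaki fragments, the enzymes that make nucleotides, and factors that act on newly copied chromatin. They were chosen by name. A probe set annotated to a single symbol stood for each gene, and where a gene had more than 1 probe set the one with the highest mean was used. All 46 were found among the 19938 genes of the array, and all 46 were among the 16527 genes kept by a filter on low values (above the array's 25th percentile on at least 2 arrays). Most members passed that filter on all 11 arrays, Pole2 on 10, Orc1 on 4 and Gmnn on 3.

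The RNA was read on 11 Affymetrix Mouse Gene 1.0 ST arrays. It came from fluorescent cells that were sorted, about 3000 to 5000 per group, after the dorsal and ventral dentate gyrus had been dissected from 750 µm slices of mouse brain at postnatal day 35, and the RNA was amplified before hybridisation. All 4 lines are GFP reporters. PomcGFP (2 arrays) carries GFP as a Pomc transgene. The kiTbr2GFP line (3 arrays) has GFP inserted at Eomes, which codes for the transcription factor Tbr2. The tgTbr2GFP line (3 arrays) carries GFP on an Eomes BAC transgene, and NesGFP (3 arrays) carries it as a Nestin transgene. Pomc reporters are known to mark newborn granule neurons, Tbr2 marks intermediate progenitors, and Nestin marks neural stem cells. The labels do not say whether the Eomes knock-in was carried on 1 or both alleles. They also do not state whether replicate arrays were made from different mice. The p-values set a difference only against the spread of arrays within lines, pooled over the 4 lines, and that spread may be technical.

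Before a cell divides, origins are licensed in G1, when ORC, Cdc6 and Cdt1 load the MCM helicase onto DNA. At the start of S phase Cdc45 and the GINS complex turn the loaded MCM ring into an active helicase, primase lays down RNA primers, and polymerases held by PCNA copy both strands. Many of these genes are transcribed by E2F factors at the passage from G1 to S. Cells that have left the cycle for good lose most of this machinery, although some ORC subunits are kept in neurons. In the dentate gyrus, dividing cells are mostly intermediate progenitors, while stem cells divide rarely and granule neurons do not divide.

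Values are log2 RMA values, the deposited scale, and differences between lines are differences of those values. A gene is called when the Benjamini-Hochberg adjusted p of limma's moderated test over all 16527 genes is under 0.05, with no fold threshold. The levels of different genes are not compared with each other, since they come from different probes.

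The arrays of the lines differed in the markers of many cell types. The arrays of PomcGFP, kiTbr2GFP and tgTbr2GFP correlated at 0.933 to 0.985 with each other over genes, and at 0.766 to 0.839 with those of NesGFP. Eomes lay at 7.35 to 7.68 on the PomcGFP arrays, 9.93 to 10.07 on the kiTbr2GFP arrays, 9.83 to 10.39 on the tgTbr2GFP arrays and 8.52 to 9.23 on the NesGFP arrays. Markers of endothelial cells averaged 6.89 to 7.28 per array in PomcGFP, 6.14 to 6.39 in kiTbr2GFP, 6.26 to 7.32 in tgTbr2GFP and 10.10 to 10.25 in NesGFP. All 9 endothelial, all 8 mural and all 10 astrocyte markers measured were called lower than NesGFP in each of the other 3 lines. Of 8 oligodendrocyte markers, 5 were called lower in PomcGFP and 8 in each Tbr2 reporter. Of 7 markers of oligodendrocyte precursors, 6 were called lower in PomcGFP and 7 in each Tbr2 reporter. They averaged 9.53 to 9.65 per array in NesGFP, 7.93 to 8.10 in PomcGFP, 7.27 to 7.58 in kiTbr2GFP and 7.55 to 7.79 in tgTbr2GFP. Of 6 Cajal-Retzius markers, 0 were called higher in PomcGFP, 3 in kiTbr2GFP and 4 in tgTbr2GFP. Of 8 microglial markers, 4 were called higher in PomcGFP, 1 lower in kiTbr2GFP, and 1 each way in tgTbr2GFP. Stem cell markers were called lower for 10 of 11 in PomcGFP, 10 in kiTbr2GFP and 8 in tgTbr2GFP. Array means of the stem cell markers were 10.05 to 10.28 in NesGFP, 8.71 to 8.73 in PomcGFP, 8.80 to 8.85 in kiTbr2GFP and 9.07 to 9.18 in tgTbr2GFP. Pecam1, which defines endothelial cells, was at 9.90 ± 0.06 (SD, n = 3) in NesGFP. Mag, a myelin gene of oligodendrocytes, was at 11.81 ± 0.08 (SD, n = 3) there and at 8.54 in PomcGFP. Not all myelin genes separated PomcGFP from NesGFP, and Mbp was at 10.13 and 10.19 in these lines. Mbp, Mobp (10.02 and 11.15) and Mal (10.04 and 10.95) were not called between them in limma. The part of these cells in each difference from NesGFP given below was not tested.

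As a set, the replication genes were lowest in PomcGFP and mostly highest in kiTbr2GFP. The mean over the members lay at 7.35 to 7.49 on the PomcGFP arrays, 8.08 to 8.13 on the kiTbr2GFP arrays, 7.73 to 7.83 on the tgTbr2GFP arrays and 7.68 to 7.91 on the NesGFP arrays. PomcGFP had the lowest line mean for 37 members, NesGFP for 7 and tgTbr2GFP for 2. The kiTbr2GFP line had the highest mean for 32 members, NesGFP for 12 and tgTbr2GFP for 2. The commonest order, found in 19 members, ran from kiTbr2GFP through NesGFP and tgTbr2GFP down to PomcGFP. In the moderated F test over the 4 lines 31 members (67.4%) were called, where 43.4% of all genes were. In sorted cells measured in bulk, fewer cycling cells and less RNA per cycling cell cannot be told apart.

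**Figure D1:**
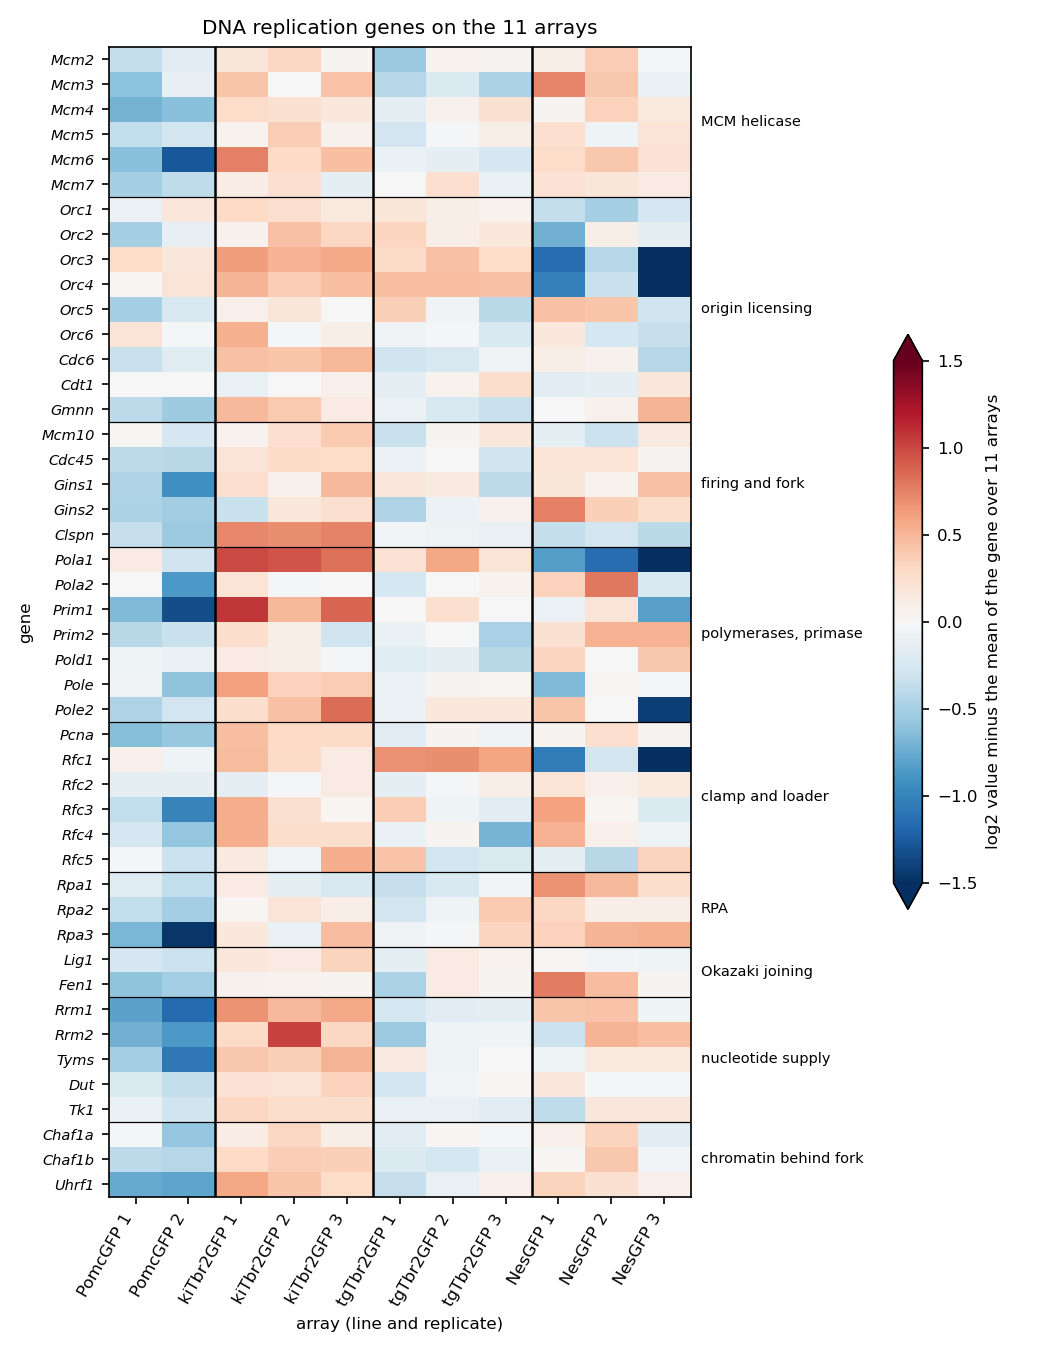
Log2 RMA value of each of the 46 members (down the page, by role) on each of the 11 arrays (across, by line), drawn as the difference from the member's mean over all arrays, with the colour scale ending at 1.5 in either direction. The PomcGFP line mean is lowest for 37 members, and the NesGFP arrays are lowest for Orc1, Orc3, Orc4, Pola1 and Rfc1.

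PomcGFP arrays had lower values of replication genes than kiTbr2GFP arrays. Of the 46 members, 18 were called lower (39.1%, where 1.98% of all genes were called lower and 4.88% were called in either direction) and 0 were called higher (2.9% of all genes), also at an unadjusted p under 0.05 in limma. The median difference of the members was -0.56, against 0.01 over all genes, and 45 of 46 had a negative sign. The enzymes of nucleotide supply had 4 of 5 members called lower, the MCM helicase 2 of 6, firing and fork factors 3 of 5, chromatin factors 2 of 3, polymerases and primase 2 of 7, and origin licensing 2 of 9. The 2 of origin licensing were Cdc6 and Gmnn. Gmnn lay under the array's 25th percentile on both PomcGFP arrays, so it entered the tests only through other lines where it was high. With 2 PomcGFP arrays, many calls rested on both. Without PomcGFP array 1, 11 members were called, and Cdc45, Cdc6, Chaf1b, Dut, Gmnn, Lig1 and Rrm2 ended (limma adjusted p = 0.0693 to 0.234). Without PomcGFP array 2, 7 members were called, and the calls of Gins1, Pola1, Prim1 and Rpa3 also ended (limma adjusted p = 0.058 to 0.277 over the 11 lost). Leaving out 1 kiTbr2GFP array ended 4 to 6 calls, all of them among Cdc6, Dut, Gins1, Gmnn, Lig1, Pola1 and Rrm2 (limma adjusted p = 0.0582 to 0.128). The Lig1 call also ended without tgTbr2GFP array 2 or 3, and the Dut call without tgTbr2GFP array 2 (limma adjusted p = 0.0532 to 0.0577). Rrm1, Mcm6, Tyms, Uhrf1, Clspn, Pcna and Mcm4 were called in every alternative run.

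Markers of other cell types moved in this comparison too. Of the markers of mature granule neurons, 7 of 8 were called higher in PomcGFP than in kiTbr2GFP (median 1.91), and their mean per array lay at 9.55 to 9.67 in PomcGFP and 7.64 to 7.88 in kiTbr2GFP. Of the markers of intermediate progenitors, 5 of 7 were called lower (median -1.23), as was 1 of 11 of stem cells (-0.09). Those called higher also included 4 of 8 of microglia (median 0.54), 3 of 9 of endothelial cells (0.66), 3 of 7 of oligodendrocyte precursors (0.31), 2 of 8 of oligodendrocytes (1.36), 1 of 10 of astrocytes (0.47) and 1 of 8 of mural cells (0.32), and 2 of 6 Cajal-Retzius markers were called lower (-0.34). The oligodendrocyte markers averaged 9.01 to 9.06 per array in PomcGFP and 7.48 to 8.11 in kiTbr2GFP, and the microglial markers 7.56 in PomcGFP and 6.73 to 6.92 in kiTbr2GFP. Against tgTbr2GFP, PomcGFP was higher for 3 of 8 markers of mature granule neurons, and lower for 4 of 7 of intermediate progenitors, 2 of 11 of stem cells and 2 of 6 of Cajal-Retzius cells. Markers of oligodendrocytes and microglia, of which none passed the test in limma there, had medians of 0.89 and 0.46. The oligodendrocyte markers averaged 9.23, 7.47 and 7.87 on tgTbr2GFP arrays 1, 2 and 3, so array 1 lay above both PomcGFP arrays. The microglial markers averaged 7.20, 6.81 and 7.02 on these 3 tgTbr2GFP arrays. Between the Tbr2 reporters, kiTbr2GFP was higher for 1 of 7 markers of intermediate progenitors and lower for 2 of 8 of mature granule neurons, 3 of 10 of astrocytes and 2 of 11 of stem cells. Of the markers of young neurons, 0 of 9 were called for PomcGFP against kiTbr2GFP (median -0.32) or against tgTbr2GFP (-0.13). Their mean per array lay at 10.44 to 10.51 in PomcGFP, 10.65 to 10.83 in kiTbr2GFP and 10.48 to 10.62 in tgTbr2GFP. The part of any of these cells in the differences of the replication genes was not tested.

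The same direction held against tgTbr2GFP, with smaller differences and few calls. Rpa3, Tyms, Rrm1 and Mcm4 were called lower in PomcGFP (8.7% of members, where 0.823% of all genes were called lower and 1.37% were called in either direction), and 0 members were called higher (0.545% of all genes), also at an unadjusted p under 0.05 in limma. The median difference of the members was -0.33, against 0.03 over all genes, and 43 of 46 had a negative sign. These 4 were also among the 18 called lower against kiTbr2GFP, a comparison that shares the PomcGFP arrays. None was called in every alternative. Without PomcGFP array 2, tgTbr2GFP array 2 or tgTbr2GFP array 3 there were 0 calls (limma adjusted p = 0.0854 to 0.393 for the 4 genes). There was 1 call without kiTbr2GFP array 1 or 2, there were 2 without kiTbr2GFP array 3 or PomcGFP array 1, and there were 7 without NesGFP array 3. The calls of Rrm1 and Tyms were also lost without tgTbr2GFP array 1 (limma adjusted p = 0.0705 and 0.0846).

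Between the Tbr2 reporters, Clspn and Rrm1 were called higher in kiTbr2GFP than in tgTbr2GFP (4.35% of members, where 0.436% of all genes were called higher and 1.12% were called in either direction), and 0 members were called lower (0.684% of all genes), also at an unadjusted p under 0.05 in limma. The median difference was 0.29, against 0.02 over all genes, and 44 of 46 signs were positive. The Clspn call was kept in every alternative, with limma adjusted p up to 0.0335. The Rrm1 call was lost when any 1 kiTbr2GFP or tgTbr2GFP array was left out (limma adjusted p = 0.0815 to 0.147), which left 1 call, and without NesGFP array 3 there were 4 calls.

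Against NesGFP, kiTbr2GFP was higher for 10 members and lower for 1, where 45.2% of all genes were called in either direction. The share called higher was 21.7%, where 18.2% of all genes were called higher, and the share called lower was 2.17%, where 27.0% of all genes were, so the share of rises lay near that of all genes. Pola1, Orc3, Orc4, Rfc1, Clspn, Prim1, Pole, Orc1, Cdc6 and Orc2 rose, and Rpa1 fell. Orc1 passed the filter on no NesGFP array, so it entered the tests only through other lines where it was high. The median of the members was 0.21, against -0.01 over all genes. This comparison moved with the scaling of the arrays. When each array was centred on its median, 20 members were called, 19 higher and 1 lower, and the median of all genes moved up by 0.11. Over all genes, 3002 were called higher and 4470 lower, against 4351 and 3800 after centring, and 3852 and 3919 after cyclic loess, which called 20 members, all higher. The call of Orc2 was lost without NesGFP array 1, without kiTbr2GFP array 2 or 3, and without any 1 array of PomcGFP or tgTbr2GFP (limma adjusted p = 0.0507 to 0.166). That of Pole was lost without kiTbr2GFP array 1 (limma adjusted p = 0.0561), and that of Rpa1 after cyclic loess.

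In tgTbr2GFP, 6 members were higher than in NesGFP and 9 were lower, where 41.6% of all genes were called in either direction. These are 13% of members, where 15.8% of all genes were called higher, and 19.6% of members, where 25.8% of all genes were called lower, so both shares lay near those of all genes. Rfc1, Pola1, Orc4, Orc3, Orc1 and Clspn rose, and Mcm3, Rpa1, Gins2, Prim2, Fen1, Pold1, Mcm6, Rrm1 and Gmnn fell. Orc1 lay under the array's 25th percentile on every NesGFP array, and Gmnn on every tgTbr2GFP array. Both entered the tests only through arrays where they were high. The median of the members was -0.14, against -0.03 over all genes. Over all genes, 2605 were called higher and 4262 lower, against 3611 and 3614 after median centring, and 3551 and 3642 after cyclic loess. The members' split was 7 higher and 5 lower after centring, and 8 and 5 after cyclic loess, where their median came to -0.00. Without tgTbr2GFP array 1 there were 8 calls, 5 higher and 3 lower, and without tgTbr2GFP array 3 there were 9, 5 higher and 4 lower. The calls of Clspn, Fen1, Gmnn, Mcm3, Mcm6 and Rrm1 were lost without either of these arrays, that of Gins2 without array 1 and that of Prim2 without array 3 (limma adjusted p = 0.0533 to 0.163). Leaving out a NesGFP array ended 3 to 6 calls (limma adjusted p = 0.0503 to 0.155), with Mcm3 and Gins2 lost without NesGFP array 1. Leaving out 1 array of PomcGFP or kiTbr2GFP ended 2 or 3 calls, among Clspn, Fen1, Gmnn and Mcm6.

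In PomcGFP, 21 members were lower than in NesGFP (45.7%, where 24.0% of all genes were called lower) and 5 were higher (10.9%, where 15.9% of all genes were), and 39.9% of all genes were called in either direction. The median of the members was -0.55, against 0.00 over all genes, and 39 of 46 had a negative sign. All 3 subunits of replication protein A and 5 of 6 MCM subunits fell. The count of MCM subunits was 4 after cyclic loess and 3 after median centring, while that of replication protein A stayed at 3. Among the 21 that fell, Gmnn passed the filter on no PomcGFP array. The 5 that rose were Orc3, Pola1, Orc4, Rfc1 and Orc1, of which Orc1 passed the filter on no NesGFP array. All 5 were among the 6 members called higher than NesGFP in both Tbr2 reporters, with Clspn, and these comparisons share the NesGFP arrays. Over all genes, 2624 were called higher and 3967 lower, against 3462 and 3496 after median centring, and 3326 and 3383 after cyclic loess. For the members the split was 5 and 19 after centring, and 4 and 19 after cyclic loess. Without PomcGFP array 2 there were 16 calls, 2 higher and 14 lower, and Chaf1b, Gins1, Gmnn, Mcm5, Orc1, Orc4, Rfc1, Rfc3, Rpa2 and Rrm2 were lost (limma adjusted p = 0.0566 to 0.276). Without PomcGFP array 1 the calls of Mcm3, Mcm5, Mcm7, Rfc1, Rpa2 and Rrm2 were lost (limma adjusted p = 0.0513 to 0.276). The Mcm5 call was also lost without NesGFP array 1 or 3, kiTbr2GFP array 3 or tgTbr2GFP array 2, and the Mcm3 call without NesGFP array 1 or 2 (limma adjusted p = 0.0501 to 0.101 over the calls ended by any of these).

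**Figure D2:**
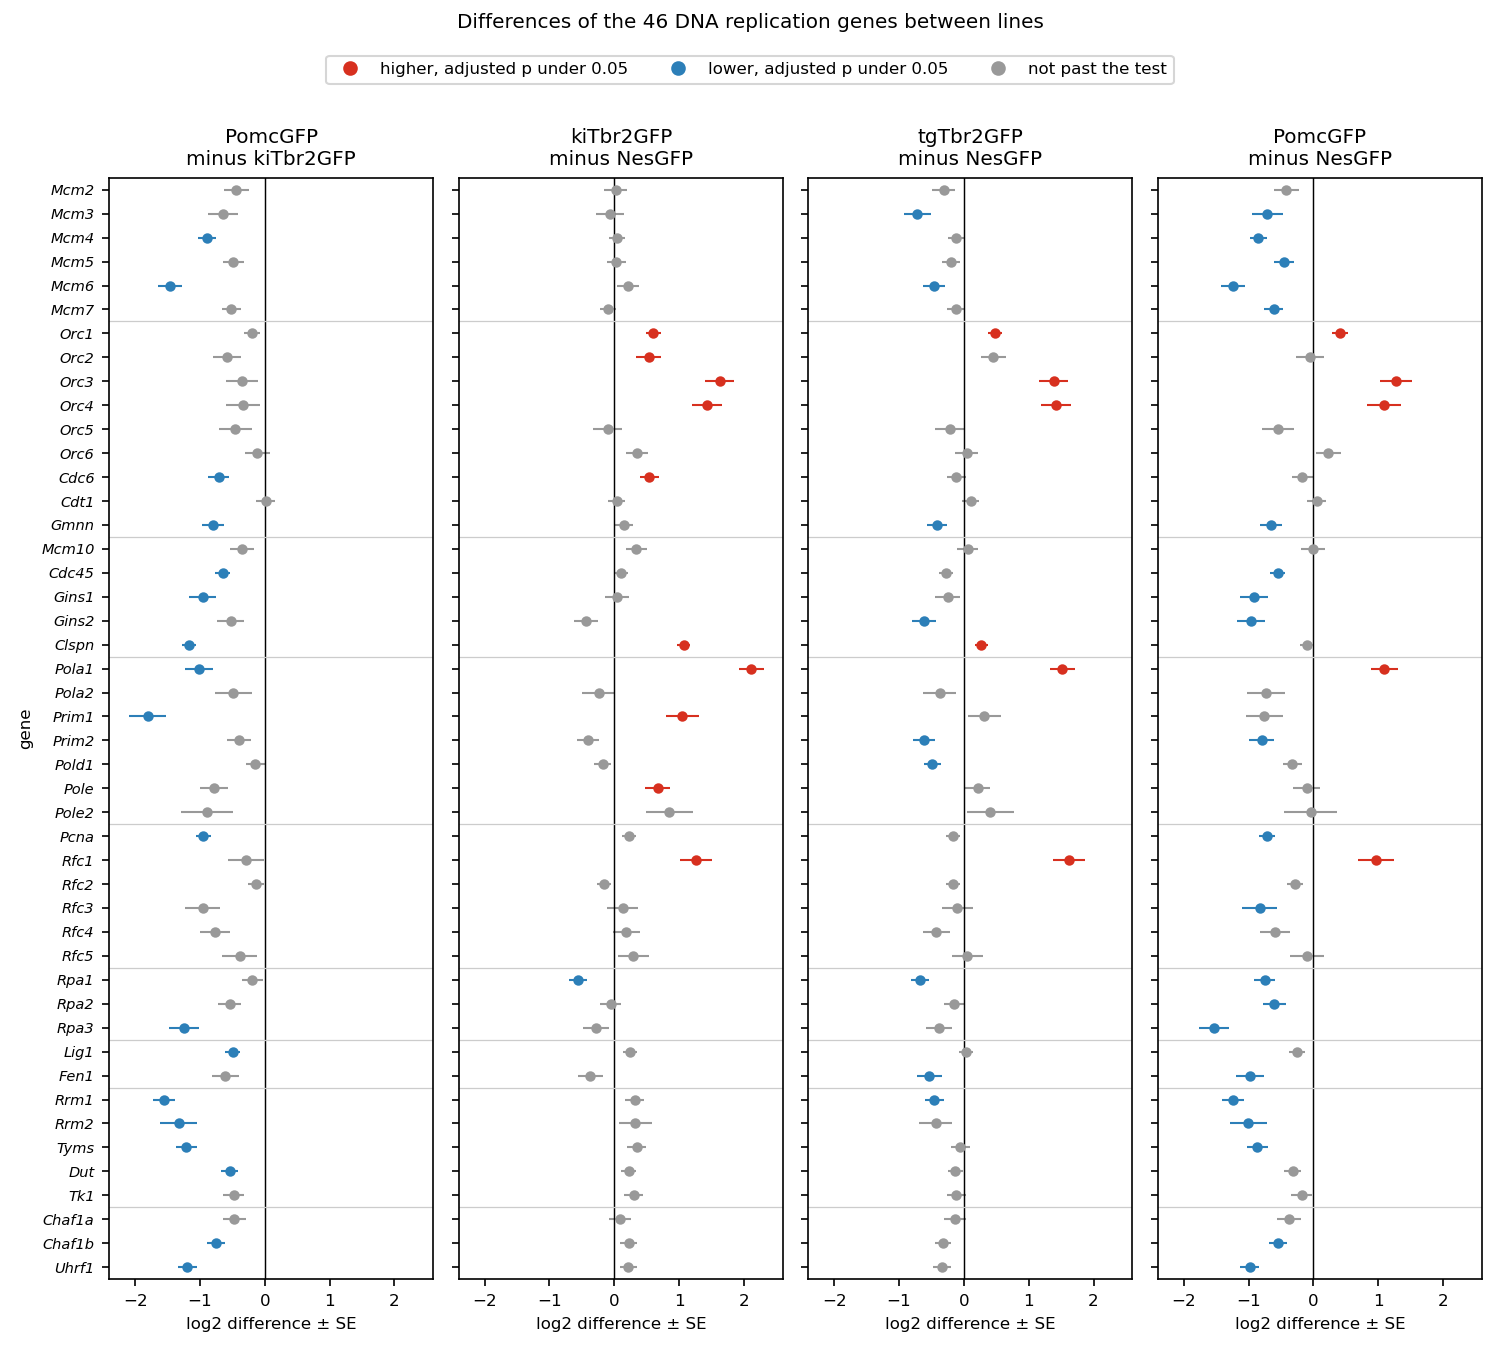
Difference in log2 RMA value between lines (across) for each of the 46 members (down the page, by role) in 4 comparisons. Bars are 1 SE of limma's fit, red and blue points are called higher and lower at an adjusted p under 0.05, and grey points are not called. In the panel of PomcGFP against kiTbr2GFP, 45 of 46 points lie below 0.

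The letters of the promoters are shown here for 4 members whose values below turn on different lines: Mcm6 and Clspn, and Pola1 and Orc3. The windows are RefSeq's on GRCm38.p6, from 250 bases before to 50 bases after the annotated start, written 5′ to 3′ along the gene. Capitals mark an E2F motif, searched as TTTCCCGC, TTTCGCGC, TTTGCCGC or TTTGGCGC on both strands.
Mcm6, chr1:128359656-128359955, minus strand: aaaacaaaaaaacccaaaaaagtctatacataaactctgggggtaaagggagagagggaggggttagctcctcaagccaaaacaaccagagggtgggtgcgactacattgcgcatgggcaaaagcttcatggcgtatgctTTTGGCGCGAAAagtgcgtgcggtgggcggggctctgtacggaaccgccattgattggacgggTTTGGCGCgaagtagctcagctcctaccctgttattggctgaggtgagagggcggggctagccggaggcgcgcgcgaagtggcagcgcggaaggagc
Clspn, chr4:126556730-126557029, plus strand: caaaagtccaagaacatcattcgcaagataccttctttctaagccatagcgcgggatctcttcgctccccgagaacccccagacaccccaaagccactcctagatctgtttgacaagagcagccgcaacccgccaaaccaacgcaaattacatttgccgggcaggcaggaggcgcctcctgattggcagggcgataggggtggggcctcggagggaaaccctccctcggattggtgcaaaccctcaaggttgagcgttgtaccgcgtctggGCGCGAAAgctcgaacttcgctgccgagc
Pola1, chrX:93632106-93632405, minus strand: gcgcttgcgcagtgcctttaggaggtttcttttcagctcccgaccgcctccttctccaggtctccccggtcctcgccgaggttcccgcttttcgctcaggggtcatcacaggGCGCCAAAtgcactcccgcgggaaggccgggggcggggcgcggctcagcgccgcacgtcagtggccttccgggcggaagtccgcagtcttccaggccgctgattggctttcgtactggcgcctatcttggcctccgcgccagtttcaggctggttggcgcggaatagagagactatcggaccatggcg
Orc3, chr4:34614893-34615192, minus strand: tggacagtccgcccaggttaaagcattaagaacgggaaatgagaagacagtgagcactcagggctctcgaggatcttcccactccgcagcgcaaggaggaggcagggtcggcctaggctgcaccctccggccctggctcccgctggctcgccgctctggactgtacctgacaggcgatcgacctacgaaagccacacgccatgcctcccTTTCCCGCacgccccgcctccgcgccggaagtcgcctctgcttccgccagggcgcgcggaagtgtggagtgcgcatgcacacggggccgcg
Mcm6 holds 3 matches, at -110, -106 and -47 from the start, and the matches at -110 and -106 overlap. Clspn holds 1 match 22 bases after the start, Pola1 1 at -138 and Orc3 1 at -41. All 4 are among the 15 members with a match, while 24 members with a window held none.

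RefSeq's table held a window for 39 of the 46 members, with 47 windows in all, and none for Rfc2, Gins2, Prim2, Gmnn, Gins1, Pole and Mcm4. An E2F match stood in 15 of the 47 windows (31.9%), against 744 of all 32851 windows of that length (2.26%). The 15 genes with a match were Cdc6, Cdt1, Clspn, Lig1, Mcm3, Mcm5, Mcm6, Mcm7, Orc1, Orc3, Pola1, Pold1, Pole2, Rfc3 and Uhrf1. The letters CCAAT, searched on both strands, stood in 57.4% of the members' windows and in 37.4% of all windows. The median GC content was 61.3% in the members' windows and 52.7% in all. For PomcGFP against kiTbr2GFP the median difference was -0.64 in the 15 members with a match and -0.54 in the 24 without, and for PomcGFP against tgTbr2GFP it was -0.29 with and -0.33 without. Against NesGFP the medians with and without a match were -0.25 and -0.55 in PomcGFP, 0.21 and 0.22 in kiTbr2GFP, and -0.10 and -0.16 in tgTbr2GFP. The gaps between members with and without a match were not tested. A match describes the letters of this window and says nothing of binding in these cells.

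The MCM2-7 ring unwinds DNA ahead of the fork. Mcm6 stood at 8.21 and 7.58 in PomcGFP, 9.61, 9.15 and 9.30 in kiTbr2GFP, 8.75, 8.70 and 8.59 in tgTbr2GFP, and 9.12, 9.25 and 9.06 in NesGFP. The PomcGFP arrays lay below every other array, and the tgTbr2GFP arrays below those of kiTbr2GFP and NesGFP. Mcm6 fell in PomcGFP by 1.46 ± 0.19 (SE) against kiTbr2GFP, a 2.75-fold difference (limma adjusted p = 0.000918), and by 1.25 ± 0.19 (SE) against NesGFP (limma adjusted p = 0.000306). Against tgTbr2GFP its difference was -0.79 ± 0.19 (SE; limma adjusted p = 0.0797). Mcm4 stood at 6.75 and 6.83 in PomcGFP, 7.73, 7.68 and 7.62 in kiTbr2GFP, 7.33, 7.53 and 7.68 in tgTbr2GFP, and 7.5, 7.81 and 7.61 in NesGFP. Both PomcGFP arrays again lay below all others, while the arrays of the remaining 3 lines overlapped. Mcm4 fell in PomcGFP by 0.89 ± 0.14 (SE) against kiTbr2GFP, by 0.72 ± 0.14 (SE) against tgTbr2GFP and by 0.85 ± 0.14 (SE) against NesGFP (limma adjusted p = 0.00265, 0.0262 and 0.000486).

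Other MCM subunits moved less. Mcm3 stood at 6.23 and 6.73 in PomcGFP, 7.26, 6.83 and 7.27 in kiTbr2GFP, 6.42, 6.62 and 6.37 in tgTbr2GFP, and 7.57, 7.25 and 6.74 in NesGFP. PomcGFP and tgTbr2GFP arrays shared 1 range, below NesGFP. Mcm3 fell by 0.71 ± 0.24 (SE) in PomcGFP and by 0.72 ± 0.21 (SE) in tgTbr2GFP against NesGFP (limma adjusted p = 0.0332 and 0.0181). Mcm7 and Mcm5 fell in PomcGFP against NesGFP alone, by 0.61 ± 0.14 and 0.45 ± 0.16 (SE; limma adjusted p = 0.00554 and 0.0388). The Mcm5 call was lost after cyclic loess and after median centring, and the Mcm3 call in PomcGFP after median centring. Mcm2 was called in no comparison. It stood at 7.17 and 7.37 in PomcGFP, 7.71, 7.85 and 7.58 in kiTbr2GFP, 6.98, 7.59 and 7.58 in tgTbr2GFP, and 7.63, 7.92 and 7.52 in NesGFP. For kiTbr2GFP against NesGFP, 0 of the 6 subunits were called, with differences from -0.10 to 0.21, and the 95% interval of the Mcm2 difference ran from -0.36 to 0.40.

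The origin recognition complex marks origins and loads MCM with Cdc6 and Cdt1. Of its 6 subunits, Orc1, Orc3 and Orc4 were called higher than NesGFP in each of the other lines. Orc1 entered the tests only through those other lines, since it passed the filter on no NesGFP array. Orc3 stood at 9.74 and 9.64 in PomcGFP, 10.10, 9.99 and 10.04 in kiTbr2GFP, 9.75, 9.91 and 9.74 in tgTbr2GFP, and 8.33, 9.04 and 7.88 in NesGFP. The NesGFP arrays lay below all others and were the most spread. Orc3 rose against NesGFP by 1.28 ± 0.25 (SE) in PomcGFP, 1.63 ± 0.22 (SE) in kiTbr2GFP and 1.39 ± 0.22 (SE) in tgTbr2GFP (limma adjusted p = 0.00178, 0.000118 and 0.000419). Orc4 had the same pattern, at 9.06 and 9.23 in PomcGFP, 9.55, 9.42 and 9.49 in kiTbr2GFP, 9.49, 9.48 and 9.47 in tgTbr2GFP, and 8.02, 8.71 and 7.46 in NesGFP. Its 3 differences from NesGFP were 1.09 ± 0.26, 1.43 ± 0.23 and 1.42 ± 0.23 (SE; limma adjusted p = 0.00639, 0.000438 and 0.000494) in PomcGFP, kiTbr2GFP and tgTbr2GFP. The call in PomcGFP was lost without PomcGFP array 2. For both genes, NesGFP array 2 was the highest and NesGFP array 3 the lowest of that line.

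Orc1, the subunit whose amount follows the cell cycle in cultured mammalian cells, stood at 5.90 and 6.16 in PomcGFP, 6.28, 6.24 and 6.14 in kiTbr2GFP, 6.17, 6.08 and 6.04 in tgTbr2GFP, and 5.63, 5.49 and 5.74 in NesGFP. The NesGFP arrays lay below all others. Orc1 rose by 0.41 ± 0.12 (SE) in PomcGFP, 0.60 ± 0.11 (SE) in kiTbr2GFP and 0.48 ± 0.11 (SE) in tgTbr2GFP (limma adjusted p = 0.0218, 0.00101 and 0.00487). The values are dim, and Orc1 passed the filter on 4 arrays, kiTbr2GFP arrays 1 and 2, tgTbr2GFP array 1 and PomcGFP array 2. It lay under the 25th percentile on every NesGFP array, so it entered the tests only through lines where it was high. The call in PomcGFP was lost without PomcGFP array 2 or NesGFP array 2. Orc2 stood at 7.75 and 8.13 in PomcGFP, 8.32, 8.69 and 8.56 in kiTbr2GFP, 8.57, 8.35 and 8.41 in tgTbr2GFP, and 7.52, 8.34 and 8.12 in NesGFP. Its call of 0.53 ± 0.20 (SE) for kiTbr2GFP against NesGFP (limma adjusted p = 0.0465) came with overlapping arrays and was lost without NesGFP array 1 (limma adjusted p = 0.166). Orc5 and Orc6 were called in no comparison. The line means of Orc5 were 7.16 in PomcGFP, 7.61 in kiTbr2GFP, 7.497 in tgTbr2GFP and 7.71 in NesGFP, with PomcGFP lowest as for the MCM subunits Mcm4 and Mcm6.

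The loader Cdc6 was raised in 1 line. It stood at 6.47 and 6.63 in PomcGFP, 7.25, 7.22 and 7.31 in kiTbr2GFP, 6.51, 6.56 and 6.75 in tgTbr2GFP, and 6.91, 6.88 and 6.38 in NesGFP. The kiTbr2GFP arrays lay above every other array, and those of the other 3 lines overlapped. Cdc6 fell by 0.71 ± 0.16 (SE) in PomcGFP against kiTbr2GFP (limma adjusted p = 0.028, lost without any 1 PomcGFP or kiTbr2GFP array) and rose by 0.54 ± 0.14 (SE) in kiTbr2GFP against NesGFP (limma adjusted p = 0.0103). For kiTbr2GFP against tgTbr2GFP its difference was 0.65 ± 0.14 (SE; limma adjusted p = 0.0618). Gmnn, the inhibitor of Cdt1 that blocks a second licensing, was dim, at 5.41 and 5.26 in PomcGFP, 6.28, 6.19 and 5.92 in kiTbr2GFP, 5.70, 5.57 and 5.46 in tgTbr2GFP, and 5.80, 5.85 and 6.30 in NesGFP. It passed the filter only on kiTbr2GFP arrays 1 and 2 and NesGFP array 3, so it entered the tests through lines where it was high, and it lay under the 25th percentile on every PomcGFP and tgTbr2GFP array. PomcGFP lay lowest on both arrays, and Gmnn fell there by 0.80 ± 0.17 (SE) against kiTbr2GFP (limma adjusted p = 0.0198), a call lost without either PomcGFP array and without kiTbr2GFP array 1 or 2. Cdt1 itself was called in no comparison. It stood at 6.97 and 6.97 in PomcGFP, 6.85, 6.97 and 7.04 in kiTbr2GFP, 6.83, 7.02 and 7.23 in tgTbr2GFP, and 6.80, 6.82 and 7.14 in NesGFP, and its difference between PomcGFP and kiTbr2GFP was 0.01, with a 95% interval from -0.31 to 0.34.

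**Figure D3:**
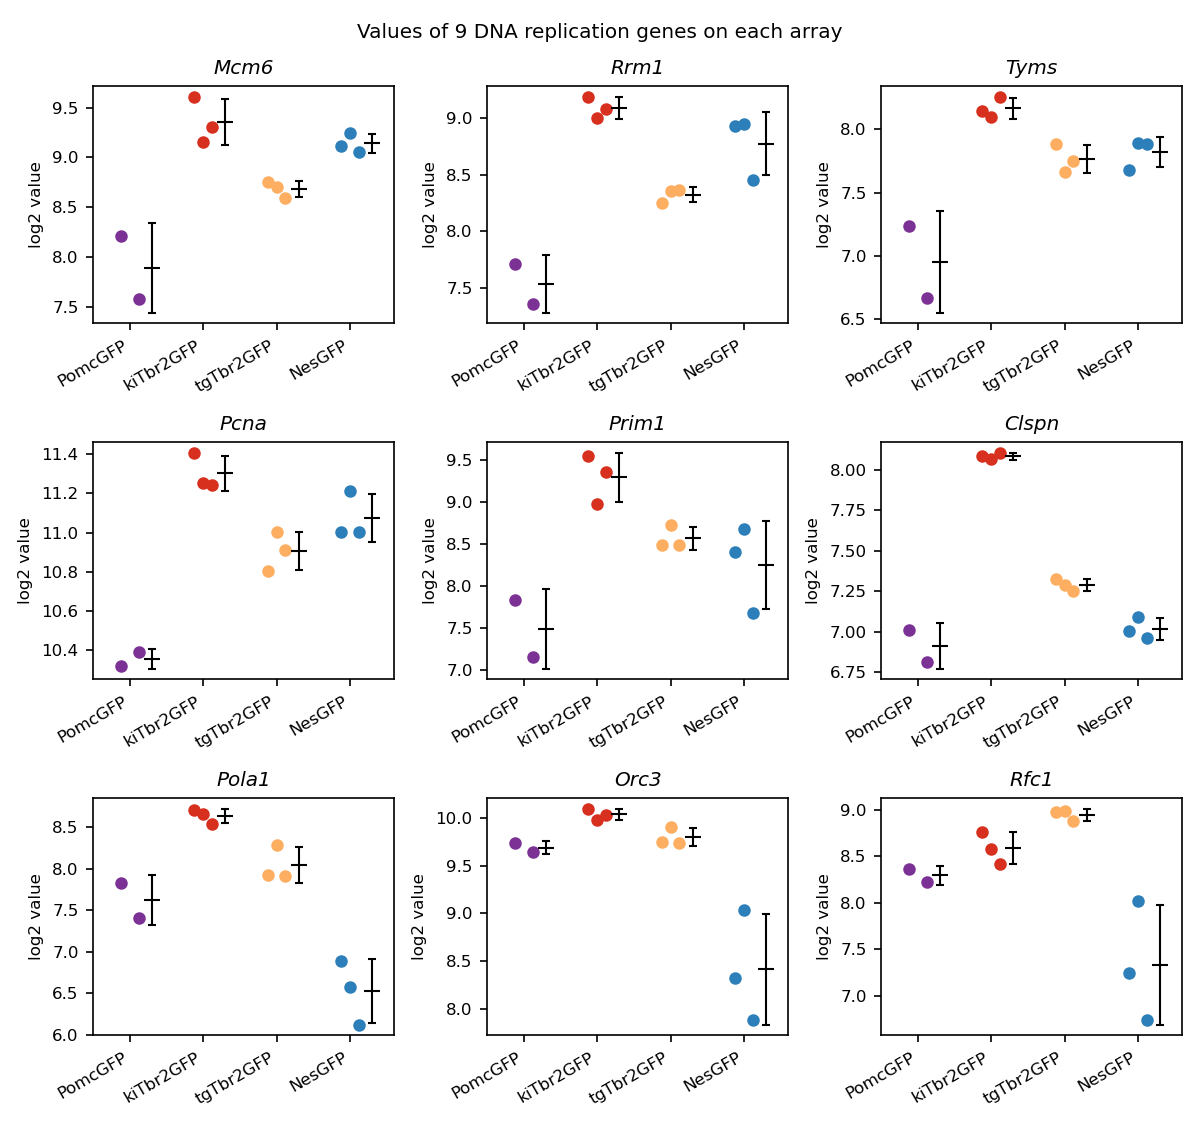
Log2 RMA value on every array (points) for 9 members, with the lines across and the line mean ± SD (n = 2 for PomcGFP, 3 for the other lines) in black beside the points. The PomcGFP points are lowest for Mcm6, Rrm1, Tyms and Pcna, and the NesGFP points are lowest for Pola1, Orc3 and Rfc1.

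Clspn codes for claspin, an adaptor that links the fork to the Chk1 checkpoint kinase. It stood at 7.01 and 6.81 in PomcGFP, 8.08, 8.06 and 8.10 in kiTbr2GFP, 7.32, 7.29 and 7.25 in tgTbr2GFP, and 7.0, 7.09 and 6.96 in NesGFP. The 3 kiTbr2GFP arrays lay close together and above all others, the tgTbr2GFP arrays came next, and PomcGFP and NesGFP overlapped. Clspn fell by 1.17 ± 0.11 (SE) in PomcGFP against kiTbr2GFP, a 2.25-fold difference (limma adjusted p = 0.000122). It was higher in kiTbr2GFP by 1.07 ± 0.10 (SE) against NesGFP and by 0.80 ± 0.10 (SE) against tgTbr2GFP (limma adjusted p = 5.45e-06 and 0.00622). In tgTbr2GFP it rose by 0.27 ± 0.10 (SE) against NesGFP (limma adjusted p = 0.043), a call lost without any 1 array of tgTbr2GFP or kiTbr2GFP and without NesGFP array 1 or 3.

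Of the factors that turn MCM into an active helicase, Cdc45 fell in PomcGFP by 0.65 ± 0.12 (SE) against kiTbr2GFP and by 0.55 ± 0.12 (SE) against NesGFP (limma adjusted p = 0.00868 and 0.00359). Gins1 fell by 0.96 ± 0.21 and 0.92 ± 0.21 (SE) in the same comparisons (limma adjusted p = 0.0237 and 0.0051). Its partner in the GINS complex, Gins2, stood at 7.90 and 7.84 in PomcGFP, 8.04, 8.54 and 8.61 in kiTbr2GFP, 7.92, 8.29 and 8.44 in tgTbr2GFP, and 9.13, 8.73 and 8.63 in NesGFP. NesGFP lay above the other lines here, and Gins2 fell against it by 0.96 ± 0.21 (SE) in PomcGFP and 0.62 ± 0.19 (SE) in tgTbr2GFP (limma adjusted p = 0.00367 and 0.0209). The Cdc45 call against kiTbr2GFP was lost without either PomcGFP array, the Gins1 call against kiTbr2GFP without PomcGFP array 2 and without kiTbr2GFP array 1 or 3, and the Gins1 call against NesGFP without PomcGFP array 2. Mcm10, which helps fire origins, was called in no comparison.

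Pola1 is the catalytic subunit of DNA polymerase alpha, which extends the RNA primers. It stood at 7.83 and 7.41 in PomcGFP, 8.71, 8.66 and 8.54 in kiTbr2GFP, 7.93, 8.29 and 7.91 in tgTbr2GFP, and 6.89, 6.57 and 6.12 in NesGFP. The kiTbr2GFP arrays were highest and the NesGFP arrays lowest, with no overlap with any other line. Pola1 rose against NesGFP by 1.10 ± 0.21 (SE) in PomcGFP, 2.11 ± 0.19 (SE) in kiTbr2GFP and 1.52 ± 0.19 (SE) in tgTbr2GFP (limma adjusted p = 0.00182, 5.45e-06 and 7.41e-05), the largest difference of any member in kiTbr2GFP at 4.31-fold. It fell by 1.01 ± 0.21 (SE) in PomcGFP against kiTbr2GFP (limma adjusted p = 0.0187, lost without PomcGFP array 2 and without kiTbr2GFP array 1 or 2).

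Prim1, the small primase subunit that makes the primer, stood at 7.82 and 7.15 in PomcGFP, 9.55, 8.98 and 9.35 in kiTbr2GFP, 8.49, 8.72 and 8.48 in tgTbr2GFP, and 8.40, 8.67 and 7.67 in NesGFP. The kiTbr2GFP arrays lay above all others, and the PomcGFP arrays differed from each other by more than those of most members. Prim1 fell by 1.81 ± 0.29 (SE) in PomcGFP against kiTbr2GFP (limma adjusted p = 0.00325, lost without PomcGFP array 2) and rose by 1.05 ± 0.26 (SE) in kiTbr2GFP against NesGFP (limma adjusted p = 0.00588). The large primase subunit Prim2 had another pattern, at 6.59 and 6.67 in PomcGFP, 7.27, 7.10 and 6.71 in kiTbr2GFP, 6.91, 7.01 and 6.52 in tgTbr2GFP, and 7.23, 7.53 and 7.52 in NesGFP. NesGFP was highest by line mean, and Prim2 fell against it by 0.80 ± 0.19 (SE) in PomcGFP and 0.61 ± 0.17 (SE) in tgTbr2GFP (limma adjusted p = 0.00594 and 0.0128, the second lost without tgTbr2GFP array 3).

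Pold1, the catalytic subunit of polymerase delta, stood at 7.40 and 7.37 in PomcGFP, 7.59, 7.56 and 7.45 in kiTbr2GFP, 7.30, 7.33 and 7.06 in tgTbr2GFP, and 7.79, 7.47 and 7.87 in NesGFP. The tgTbr2GFP arrays were lowest, and Pold1 fell there by 0.48 ± 0.13 (SE) against NesGFP (limma adjusted p = 0.00964). Pole, the catalytic subunit of polymerase epsilon, rose by 0.67 ± 0.19 (SE) in kiTbr2GFP against NesGFP (limma adjusted p = 0.0142, lost without kiTbr2GFP array 1). Pola2 and Pole2, accessory subunits of polymerases alpha and epsilon, were called in no comparison.

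Pcna, the clamp that holds polymerases on DNA, stood at 10.32 and 10.39 in PomcGFP, 11.41, 11.25 and 11.24 in kiTbr2GFP, 10.81, 11.001 and 10.91 in tgTbr2GFP, and 11.005, 11.21 and 11.003 in NesGFP. PomcGFP arrays were lowest without overlap, and kiTbr2GFP arrays highest without overlap. Pcna fell in PomcGFP by 0.95 ± 0.12 (SE) against kiTbr2GFP and by 0.72 ± 0.12 (SE) against NesGFP (limma adjusted p = 0.000873 and 0.000634), and its difference from tgTbr2GFP was -0.55 ± 0.12 (SE; limma adjusted p = 0.0537). A second probe set for Pcna lay within 0.07 of the first on every array.

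The large subunit of the clamp loader, Rfc1, went the other way. It stood at 8.37 and 8.22 in PomcGFP, 8.77, 8.58 and 8.42 in kiTbr2GFP, 8.98, 8.99 and 8.88 in tgTbr2GFP, and 7.24, 8.02 and 6.74 in NesGFP. The NesGFP arrays were lowest, with array 3 again the lowest and array 2 the highest, and tgTbr2GFP arrays were highest. Rfc1 rose against NesGFP by 0.96 ± 0.28 (SE) in PomcGFP, 1.26 ± 0.25 (SE) in kiTbr2GFP and 1.62 ± 0.25 (SE) in tgTbr2GFP (limma adjusted p = 0.0165, 0.00157 and 0.000299), and the call in PomcGFP was lost without either PomcGFP array. Of the small subunits, Rfc3 fell by 0.83 ± 0.27 (SE) in PomcGFP against NesGFP (limma adjusted p = 0.029, lost without PomcGFP array 2 or NesGFP array 1), and Rfc2, Rfc4 and Rfc5 were called in no comparison.

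Replication protein A coats single-stranded DNA, and its 3 subunits all fell in PomcGFP against NesGFP. Rpa3 stood at 8.20 and 7.43 in PomcGFP, 9.04, 8.79 and 9.35 in kiTbr2GFP, 8.83, 8.86 and 9.22 in tgTbr2GFP, and 9.24, 9.39 and 9.42 in NesGFP. Both PomcGFP arrays lay below all others, far apart from each other. Rpa3 fell in PomcGFP by 1.25 ± 0.23 (SE) against kiTbr2GFP, 1.15 ± 0.23 (SE) against tgTbr2GFP and 1.53 ± 0.23 (SE) against NesGFP (limma adjusted p = 0.00767, 0.0316 and 0.000271), and the first and second of these calls were lost without PomcGFP array 2. With the mean of its probe sets, the difference from tgTbr2GFP came to -0.69 and was no longer called (limma adjusted p = 0.0953), and that call also ended without tgTbr2GFP array 2 or 3 or kiTbr2GFP array 1. A second probe set of Rpa3 read lower, by up to 1.23 on 1 array, with line means of 7.78 in PomcGFP, 8.28 in kiTbr2GFP, 8.0 in tgTbr2GFP and 8.35 in NesGFP. Rpa1, the large subunit, stood at 7.74 and 7.56 in PomcGFP, 8.05, 7.79 and 7.69 in kiTbr2GFP, 7.58, 7.70 and 7.89 in tgTbr2GFP, and 8.60, 8.42 and 8.19 in NesGFP. NesGFP lay above all others, and Rpa1 was the 1 member called lower than NesGFP in every line, by 0.75 ± 0.16, 0.56 ± 0.14 and 0.68 ± 0.14 (SE) in PomcGFP, kiTbr2GFP and tgTbr2GFP (limma adjusted p = 0.00313, 0.008 and 0.00268).

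Fen1 trims the flaps of Okazaki fragments and Lig1 seals them. Fen1 stood at 6.51 and 6.60 in PomcGFP, 7.18, 7.16 and 7.15 in kiTbr2GFP, 6.63, 7.23 and 7.15 in tgTbr2GFP, and 7.87, 7.57 and 7.15 in NesGFP. PomcGFP arrays lay below all others, and the remaining lines overlapped. Fen1 fell by 0.98 ± 0.21 (SE) in PomcGFP against NesGFP (limma adjusted p = 0.00342), and its difference from kiTbr2GFP was -0.61 ± 0.21 (SE; limma adjusted p = 0.165). Lig1 fell by 0.50 ± 0.12 (SE) in PomcGFP against kiTbr2GFP (limma adjusted p = 0.0386), a call lost without any 1 array of PomcGFP or kiTbr2GFP.

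The enzymes of nucleotide supply were the role group with the lowest median for PomcGFP against kiTbr2GFP, at -1.21, and 4 of the 5 fell. Rrm1, the large subunit of ribonucleotide reductase, which turns ribonucleotides into DNA precursors, stood at 7.71 and 7.36 in PomcGFP, 9.19, 8.99 and 9.08 in kiTbr2GFP, 8.24, 8.36 and 8.36 in tgTbr2GFP, and 8.93, 8.94 and 8.45 in NesGFP. The 4 lines did not overlap on any array, in the order kiTbr2GFP, NesGFP, tgTbr2GFP, PomcGFP. Rrm1 fell in PomcGFP by 1.55 ± 0.17 (SE) against kiTbr2GFP, 0.79 ± 0.17 (SE) against tgTbr2GFP and 1.24 ± 0.17 (SE) against NesGFP (limma adjusted p = 0.000311, 0.0446 and 0.000144). It was higher by 0.77 ± 0.15 (SE) in kiTbr2GFP than in tgTbr2GFP (limma adjusted p = 0.0343). The small subunit Rrm2, which is made in S phase, stood at 7.18 and 7.03 in PomcGFP, 8.18, 8.91 and 8.21 in kiTbr2GFP, 7.35, 7.83 and 7.85 in tgTbr2GFP, and 7.58, 8.41 and 8.35 in NesGFP. PomcGFP arrays lay below all others and the arrays of the other lines were widely spread. Rrm2 fell in PomcGFP by 1.33 ± 0.28 (SE) against kiTbr2GFP and 1.0 ± 0.28 (SE) against NesGFP (limma adjusted p = 0.0187 and 0.0144), and both calls were lost without either PomcGFP array.

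Tyms, the thymidylate synthase, stood at 7.24 and 6.67 in PomcGFP, 8.14, 8.09 and 8.26 in kiTbr2GFP, 7.88, 7.66 and 7.75 in tgTbr2GFP, and 7.68, 7.89 and 7.88 in NesGFP. The kiTbr2GFP arrays were highest and the PomcGFP arrays lowest, while tgTbr2GFP and NesGFP shared 1 range. Tyms fell in PomcGFP by 1.21 ± 0.16 (SE) against kiTbr2GFP, 0.81 ± 0.16 (SE) against tgTbr2GFP and 0.86 ± 0.16 (SE) against NesGFP (limma adjusted p = 0.00119, 0.0358 and 0.00141). Dut, which keeps uracil out of DNA, fell by 0.54 ± 0.13 (SE) in PomcGFP against kiTbr2GFP (limma adjusted p = 0.0356), a call lost without any 1 array of PomcGFP or kiTbr2GFP. Tk1, the thymidine kinase of the salvage path, was the member of this group called in no comparison, at 7.73 and 7.54 in PomcGFP, 8.14, 8.10 and 8.10 in kiTbr2GFP, 7.72, 7.72 and 7.66 in tgTbr2GFP, and 7.45, 8.0 and 8.0 in NesGFP. Its kiTbr2GFP arrays lay above all others, and its difference between PomcGFP and kiTbr2GFP was -0.48 ± 0.16 (SE; limma adjusted p = 0.148). A second Tk1 probe set differed by up to 1.22 on 1 array. Its line means were 7.36 in PomcGFP, 7.87 in kiTbr2GFP, 7.42 in tgTbr2GFP and 7.13 in NesGFP, so NesGFP was lowest. In that probe set kiTbr2GFP array 2 (7.56) lay below PomcGFP array 1 (7.69) and tgTbr2GFP array 3 (7.66).

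Uhrf1 reads hemimethylated DNA behind the fork and brings in the maintenance methyltransferase. It stood at 7.02 and 6.98 in PomcGFP, 8.36, 8.20 and 8.05 in kiTbr2GFP, 7.43, 7.66 and 7.86 in tgTbr2GFP, and 8.11, 8.0 and 7.86 in NesGFP. PomcGFP arrays lay below all others, and the arrays of the other lines overlapped. Uhrf1 fell in PomcGFP by 1.2 ± 0.15 (SE) against kiTbr2GFP and 0.98 ± 0.15 (SE) against NesGFP (limma adjusted p = 0.000755 and 0.000324), and the difference from tgTbr2GFP was -0.64 ± 0.15 (SE; limma adjusted p = 0.0668). Chaf1b, a subunit of the CAF-1 complex that sets histones on new DNA, fell by 0.76 ± 0.14 (SE) in PomcGFP against kiTbr2GFP and 0.54 ± 0.14 (SE) against NesGFP (limma adjusted p = 0.00807 and 0.0092). Both of its calls were lost without PomcGFP array 2, and that against kiTbr2GFP also without PomcGFP array 1. Chaf1a, the large CAF-1 subunit, was called in no comparison.

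Further genes of replication, a list of 45 of which 43 were tested, had fewer calls among the reporters of Pomc and Tbr2. For PomcGFP against kiTbr2GFP 10 fell (23.3%, where 1.98% of all genes did) and 0 rose, with a median of -0.41. The largest falls were those of Dscc1 (-2.20), which helps load PCNA, of Dbf4 (-1.75), the activator of the Cdc7 kinase, and of Tipin (-1.12), a fork protection factor. The count was 4 without PomcGFP array 1 and 3 without PomcGFP array 2, and 6 without kiTbr2GFP array 1. Against tgTbr2GFP, Tipin alone fell in PomcGFP (-1.0), a call lost without either PomcGFP array and without tgTbr2GFP array 2 or 3. Between the Tbr2 reporters limma called 0, while 9 were higher in kiTbr2GFP at an unadjusted p under 0.05, and 2 were called without NesGFP array 1. Against NesGFP, 15 rose and 5 fell in kiTbr2GFP, 10 rose and 7 fell in tgTbr2GFP, and 7 rose and 14 fell in PomcGFP, with medians of 0.24, 0.08 and -0.17. As shares, 34.9% rose and 11.6% fell in kiTbr2GFP, where 18.2% and 27.0% of all genes did. In tgTbr2GFP 23.3% rose and 16.3% fell, where 15.8% and 25.8% of all genes did, and in PomcGFP 16.3% rose and 32.6% fell, where 15.9% and 24.0% of all genes did. The counts in PomcGFP were 3 and 5 without PomcGFP array 2, 5 and 9 without PomcGFP array 1, 4 and 11 without NesGFP array 1, 8 and 8 after cyclic loess, and 3 and 8 with only these lines in the fit. Atad5, which unloads PCNA, rose against NesGFP in all 3 lines, by 2.19 in PomcGFP, 2.98 in kiTbr2GFP and 2.36 in tgTbr2GFP.

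Genes of mitosis and the kinetochore, a list of 34 of which 33 were tested, had larger medians than the replication genes in the comparisons among the reporters of Pomc and Tbr2. For PomcGFP against kiTbr2GFP 29 fell (87.9%, where 1.98% of all genes did), with a median of -1.44, against -0.56 for the replication genes. For PomcGFP against tgTbr2GFP 13 fell (39.4%, where 0.823% of all genes did, median -0.72), a count of 5 without PomcGFP array 1, 4 without PomcGFP array 2, 6 without tgTbr2GFP array 2 and 7 without tgTbr2GFP array 3. For kiTbr2GFP against tgTbr2GFP 14 rose (42.4%, where 0.436% of all genes did, median 0.91), a count that ranged from 6 to 12 when 1 array of either line was left out. Against NesGFP, 20 rose and 1 fell in kiTbr2GFP, 12 rose and 5 fell in tgTbr2GFP, and 4 rose and 17 fell in PomcGFP, with medians of 0.82, 0.01 and -0.56. As shares, 60.6% rose and 3.03% fell in kiTbr2GFP (18.2% and 27.0% of all genes), 36.4% and 15.2% in tgTbr2GFP (15.8% and 25.8%), and 12.1% and 51.5% in PomcGFP (15.9% and 24.0%). The 5 falls in tgTbr2GFP numbered 3 after cyclic loess, after median centring, with only these lines in the fit, and without tgTbr2GFP array 2 or kiTbr2GFP array 1 or 2. Without PomcGFP array 2 the counts in PomcGFP were 4 and 10. Knl1, a kinetochore scaffold, differed by -3.33 for PomcGFP against kiTbr2GFP and by 4.15 for kiTbr2GFP against NesGFP.

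**Figure D4:**
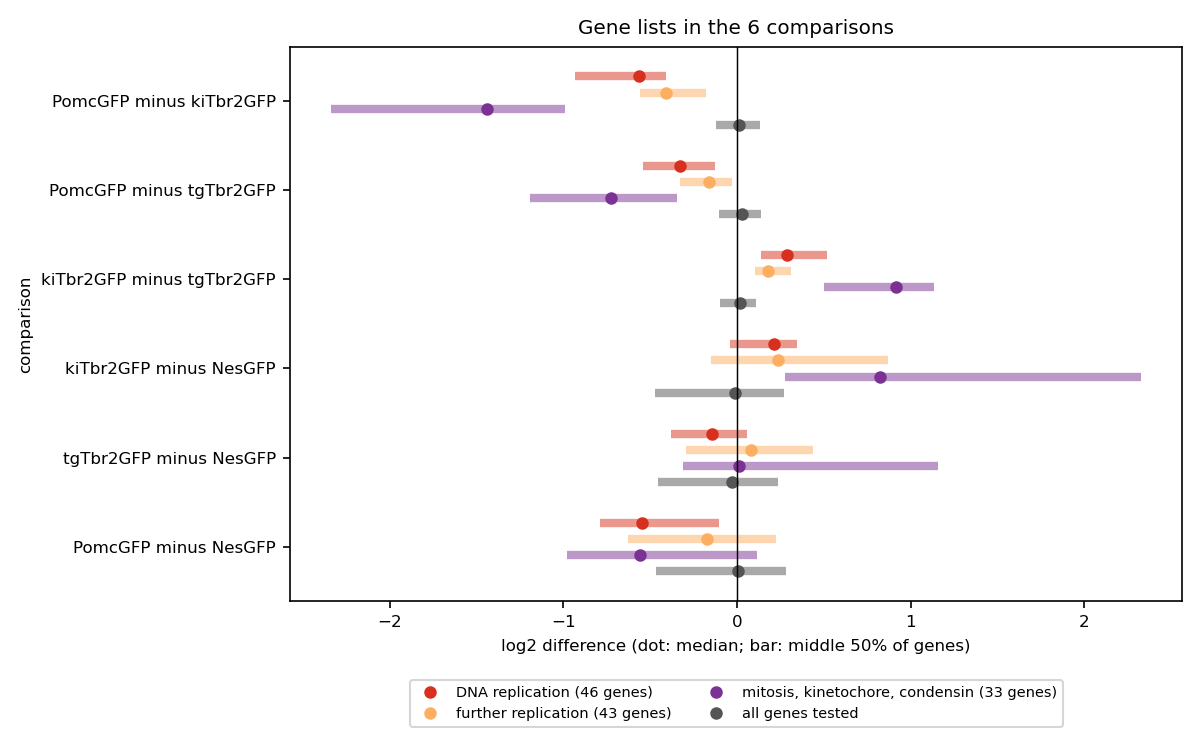
Median log2 difference (dot) and the middle 50% of genes (bar) in the 6 comparisons (down the page), for the 46 replication genes, 43 further replication genes, 33 genes of mitosis and the kinetochore, and all genes tested. For PomcGFP against kiTbr2GFP the medians are -0.56, -0.41, -1.44 and 0.01.

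Mki67 and Top2a, which are made by cycling cells, placed the lines in an order other than that of most replication genes. Mki67 stood at 6.83 and 6.90 in PomcGFP, 9.30, 8.95 and 9.03 in kiTbr2GFP, 7.71, 8.02 and 8.08 in tgTbr2GFP, and 6.13, 6.0 and 6.15 in NesGFP. NesGFP was lowest, and PomcGFP lay above it by 0.77. Top2a stood at 7.02 and 7.17 in PomcGFP, 10.55, 10.46 and 10.34 in kiTbr2GFP, 9.05, 9.36 and 9.17 in tgTbr2GFP, and 7.30, 7.96 and 8.27 in NesGFP. Here PomcGFP was lowest, by 0.75 against NesGFP, and all of these differences among the 4 lines were called. For Mcm6 and Rrm1, by contrast, every NesGFP array lay above every tgTbr2GFP array, though both calls were lost after cyclic loess and after median centring. Other members went the other way, with 6 called higher in tgTbr2GFP than in NesGFP. The order of line means of Top2a was that of 8 members, and the order of Mki67 that of 4.

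Of the 5 genes taken for the passage from G1 to S, few were called. Ccne2, the cyclin E2 gene, rose against NesGFP by 1.02 in PomcGFP, 1.83 in kiTbr2GFP and 1.61 in tgTbr2GFP. E2f8, a repressor of the E2F family, fell by 0.94 ± 0.21 (SE) in PomcGFP against kiTbr2GFP (limma adjusted p = 0.0258). E2f1, E2f2 and E2f7 were called in no comparison.

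In all, 12 members were called in no pairwise comparison: Mcm2, Orc5, Orc6, Cdt1, Mcm10, Pola2, Pole2, Rfc2, Rfc4, Rfc5, Tk1 and Chaf1a. A p above the threshold does not show that these genes were equal in the 4 lines, and for Pole2 the SE of the difference between PomcGFP and kiTbr2GFP was 0.40, against 0.12 for Rfc2. Such an SE pools the spread over all 4 lines. The SD of Pole2 was 0.12 in PomcGFP, 0.30 in kiTbr2GFP, 0.14 in tgTbr2GFP and 0.96 in NesGFP, a line outside that comparison.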

How the data were processed

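Per the submitters' processing notes, the deposited log2 values were made by the authors with RMA in the oligo package, with no version given. They cover 28858 probe sets on 11 arrays, of which 21789 carry a single gene symbol in the platform annotation, 1621 several, and 5448 are not listed with a gene. Symbols were matched to RefSeq on GRCm38.p6. A probe set was kept above the array's 25th percentile on at least 2 arrays, and the one with the highest mean stood for a gene, which left 16527 genes. One fit of 4 line means to the 11 arrays was made in R 4.3.3 with limma 3.58.1 (7 residual and 4.22 prior degrees of freedom), and 6 pairwise two-sided tests and an F test were adjusted by Benjamini-Hochberg over all genes at 0.05. Pooling the spread assumes that the arrays of all 4 lines, with the 2 of PomcGFP, vary alike. For Orc3, Orc4 and Rfc1 the NesGFP arrays were the most spread, and for Rpa3 and Mcm6 the PomcGFP arrays were. The number of arrays limits the precision.

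The members, gene lists and tests were chosen with earlier results of these data known. The text names all members by role, and gives every array for the up to 5 largest differences in each direction among called members with arrays that do not overlap, and for a panel of 14 genes (Mcm2, Mcm6, Pcna, Cdc6, Cdt1, Gmnn, Orc1, Orc2, Pola1, Rrm2, Tyms, Fen1, Uhrf1 and Tk1). Values of other lists are given for the up to 3 largest differences past the test, of which some are printed. Alternatives were no filter (19938 genes), a stricter filter at the 50th percentile, the mean of a gene's probe sets, cyclic loess, median centring, a robust variance prior with a trend on intensity, array weights, a block for the replicate number, only the compared lines in the fit, and each array left out in turn. The script was tested on simulated data. Tables and figures used Python 3.11.15, pandas 2.3.3, numpy 2.4.6 and matplotlib 3.10.9.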

Additional observations from a re-analysis of the deposited data

Results flagged for a closer look

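For 2 members, the difference from NesGFP was not the same in the Tbr2 reporters, as tested by the contrast of kiTbr2GFP with tgTbr2GFP over arrays. Clspn differed from NesGFP by 1.07 in kiTbr2GFP and by 0.27 in tgTbr2GFP, a gap of 0.796 (limma adjusted p = 0.00622). Rrm1 differed from NesGFP by 0.31 in kiTbr2GFP and by -0.45 in tgTbr2GFP, a gap of 0.766 (limma adjusted p = 0.0343). The Rrm1 call ended when any 1 array of either Tbr2 reporter was left out. With 2 or 3 arrays per line, single arrays that stand apart within a line were not tested for.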

How the results depend on the processing

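The members held 76 calls over the 6 comparisons, which gave 1512 values under the alternatives. Of these, 1311 kept the call, 201 lost it, and 0 changed sign. Members called in every alternative numbered 14 of 26 for PomcGFP against NesGFP, 7 of 18 for PomcGFP against kiTbr2GFP, 0 of 4 for PomcGFP against tgTbr2GFP, 8 of 11 for kiTbr2GFP against NesGFP, 1 of 2 for kiTbr2GFP against tgTbr2GFP, and 7 of 15 for tgTbr2GFP against NesGFP. Arrays of 2 or 3 per line limit each of these counts, and the causes of the changes below were not tested.

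Scaling moved the comparisons with NesGFP. For kiTbr2GFP, 20 members were called after cyclic loess and 20 after median centring, with member medians of 0.30 and 0.33. The medians were -0.00099 and -0.042 for tgTbr2GFP, and -0.42 and -0.46 for PomcGFP. Median centring gave 4 called members for kiTbr2GFP against tgTbr2GFP. Array weights gave 32 members and 2065 genes for PomcGFP against kiTbr2GFP, where the fit without weights called 18 and 807. They gave 13 and 1063 for PomcGFP against tgTbr2GFP (4 and 226 without weights), and 14 and 1393 for kiTbr2GFP against tgTbr2GFP (2 and 185). Fitting only the compared lines called 1246 genes for PomcGFP against kiTbr2GFP, 0 members and 143 genes for PomcGFP against tgTbr2GFP, and 5 members for kiTbr2GFP against tgTbr2GFP. Among mitosis genes, array weights called 22 lower for PomcGFP against tgTbr2GFP and 28 higher for kiTbr2GFP against tgTbr2GFP. Among further replication genes they called 20 and 7 lower in PomcGFP against kiTbr2GFP and tgTbr2GFP, and 10 higher for kiTbr2GFP against tgTbr2GFP.

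With the replicate number as a block, 1 member was called for PomcGFP against tgTbr2GFP and 1 for kiTbr2GFP against tgTbr2GFP, and the Cdt1 difference for PomcGFP against tgTbr2GFP came to 0.027. The deviations of the 15 pairs of arrays with the same number correlated at -0.11 to 0.26 over genes, above 0.1 in 4 of them, so the numbers were not taken as a pairing.

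Leaving out 1 array at a time, the members called ranged from 16 to 32 for PomcGFP against NesGFP, 7 to 21 for PomcGFP against kiTbr2GFP, 0 to 7 for PomcGFP against tgTbr2GFP, 8 to 16 for tgTbr2GFP against NesGFP, and 1 to 4 for kiTbr2GFP against tgTbr2GFP. All genes called ranged from 365 to 1043 for PomcGFP against kiTbr2GFP, 38 to 336 for PomcGFP against tgTbr2GFP, and 68 to 261 for kiTbr2GFP against tgTbr2GFP. The F test called 21 to 34 members. The members' median ranged from -0.60 to -0.44 for PomcGFP against NesGFP and from 0.13 to 0.22 for kiTbr2GFP against NesGFP.

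Values that changed sign all belonged to differences near 0 that were not called. Cyclic loess and median centring gave 0.13 and 0.045 for Tyms in tgTbr2GFP against NesGFP, 0.20 and 0.036 for Orc2 in PomcGFP against NesGFP, and -0.011 and -0.0084 for Cdt1 in PomcGFP against kiTbr2GFP, for which array weights gave -0.0016. Tk1 came to 0.085 with the mean of its probe sets and 0.087 after cyclic loess in tgTbr2GFP against NesGFP, and to 0.021 and 0.012 in PomcGFP against NesGFP. Without 1 array, the differences for PomcGFP against tgTbr2GFP ranged from -0.14 to 0.021 for Cdc6, -0.16 to 0.043 for Cdt1, -0.20 to 0.061 for Orc1 and -0.16 to 0.034 for Tk1. For PomcGFP against kiTbr2GFP Cdt1 ranged from -0.038 to 0.058. For kiTbr2GFP against tgTbr2GFP the ranges were -0.17 to 0.029 for Cdt1, -0.0092 to 0.18 for Orc2 and -0.025 to 0.27 for Fen1. Against NesGFP they were -0.065 to 0.13 for Mcm2 and -0.023 to 0.14 for Cdt1 in kiTbr2GFP, and -0.0092 to 0.16 for Cdt1 and -0.29 to 0.14 for Orc2 in PomcGFP.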

Other observations

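Gene length on the genome moved with the differences from NesGFP. Across the 46 members, Spearman's rho between the length of the gene and its difference from NesGFP was 0.35 in PomcGFP, 0.36 in kiTbr2GFP and 0.29 in tgTbr2GFP. Across 16509 genes with a length it was 0.10, 0.06 and 0.10. Over all genes, those called higher than NesGFP had a median length of 41.7 kb in PomcGFP, 32.7 kb in kiTbr2GFP and 43 kb in tgTbr2GFP, against 17.96, 19.3 and 18.6 kb for those called lower. Genes not called had medians of 17.8, 17.3 and 17.0 kb. For PomcGFP against kiTbr2GFP, genes called higher and lower had medians of 87.7 and 24.0 kb. The medians were 132.3 and 27.4 kb for PomcGFP against tgTbr2GFP, and 29.8 and 88.2 kb for kiTbr2GFP against tgTbr2GFP. In these 3 comparisons rho was 0.07, 0.003 and -0.11 over all genes, and 0.11, 0.014 and 0.004 across the members. These correlations are across genes, which are not independent replicates, and the 3 comparisons with NesGFP share its arrays. The part of gene length in these differences was not tested.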
